A study of Mus musculus with 12 samples.

Results

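The fibroblast growth factor (FGF) genes described here were taken by gene symbol from a table of gene expression in pillar cells and Deiters' cells of the mouse organ of Corti. The rule took the genes of FGF ligands (Fgf followed by a number), of FGF receptors (names starting with Fgfr), of the Sprouty and Spred inhibitors, of the ETS factors Etv1, Etv4 and Etv5, of the adaptors Frs2 and Frs3, of the FLRT membrane proteins, and Dusp6 and Il17rd. It found 47 of the 48440 features in the table, and no measured value entered the choice. Spry3 has no row in the table and was not analysed here. Of the 47 genes, 36 had a value above 0 in at least 1 library and 24 averaged above 1 RPKM (read density, corrected for the length of the transcript and the depth of the lane) in at least 1 cell type.

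Both cell types came from CBA/J mice, an inbred strain, with no treatment named, aged 28 to 32 days according to the labels. Single cells were recognised by their shape and drawn into suction pipettes, and each of the 3 libraries per cell type was made from about 1000 cells pooled over several animals. The labels call the libraries biological replicates. Their values lay close together, also for a marker of other cells: the eosinophil gene Prg2 measured 66.4, 68.1 and 68.6 RPKM in the Deiters' cell libraries. Whether the libraries vary as separate groups of animals would was not tested. Each library was read in 2 lanes, which were averaged, so that n = 3 per cell type in the main comparison. According to the study's methods most of the cells probably came from the middle and apical turns of the cochlea.

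FGFs are secreted proteins that bind, together with heparan sulfate on the cell surface, to receptor tyrosine kinases. The active receptor passes its signal through the adaptor FRS2 to the RAS-ERK cascade, which switches on the genes of the PEA3 group of ETS factors (Etv1, Etv4, Etv5) and of inhibitors such as Dusp6, the Sproutys and the Spreds, which dampen the same cascade. In the developing organ of Corti, Fgfr3 and its ligand FGF8 from the inner hair cells are known for the formation of pillar cells, and FGF20 for the formation of outer hair cells and their supporting cells. A smaller group, Fgf11 to Fgf14, stays inside the cell, where its proteins bind sodium channels.

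Read totals were estimated from the RPKM values and exon lengths, at 18641354 to 21557584 per library. They are estimates of the totals that scale the RPKM, not counts of the reads sequenced. At the median library a single read per kb of transcript thus amounted to 0.052 RPKM. The marker genes of other cells differed between the cell types. Of 6 inner hair cell markers, 6 were higher in pillar cells, with a summed level of 390.5 to 402 RPKM in the pillar cell libraries and 45.0 to 45.8 RPKM in the Deiters' cell libraries. The outer hair cell list summed to 339 to 369 RPKM against 91.9 to 99.1 RPKM, with 3 of 6 genes called higher in pillar cells and Insm1 listed at 0. The mesenchyme list summed to 209.9 to 217 RPKM against 83.5 to 85.0 RPKM, with 5 of 8 genes called higher in pillar cells. Markers of the outer sulcus, Hensen and Claudius cells summed to 158 to 163 RPKM in pillar cells against 696 to 715 RPKM in Deiters' cells, with 5 of 8 called higher in Deiters' cells. Of this list, Bmp4 (149 RPKM in Deiters' cells) and Fst (28.8 RPKM) are also on the list of Deiters' cell markers and were called. For eosinophils, 5 of 5 markers were higher in Deiters' cells, at 0.0687 to 0.565 RPKM against 89.5 to 92.2 RPKM. The general hair cell list summed to 420 to 430 RPKM in the pillar cell libraries against 148 to 149 RPKM, with 6 of 7 tested genes called higher in pillar cells, Myo6 the other way and Atoh1 listed at 0. The B cell list summed to 22.5 to 24.8 RPKM against 5.16 to 5.71 RPKM, with 4 of 4 tested genes called higher in pillar cells. The neutrophil list summed to 500 to 521 RPKM in the pillar cell libraries against 251 to 275 RPKM in the Deiters' cell libraries. Of its 8 genes, 5 were called higher in pillar cells, while 2 were higher in Deiters' cells. Of 10 pillar cell markers known from other work, 3 were called higher in pillar cells, 4 the other way, and of 8 Deiters' cell markers likewise 2 and 4, so neither list sorted the libraries by its name. Among the pillar cell markers Npy was listed at 0 in pillar cells, while Ngfr and Hes5 lay below 0.1 RPKM in both cell types. The part of other cells in the FGF values below was not tested. In such pooled samples fewer cells of a type and less RNA per cell cannot be told apart.

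Pillar cells held more RNA of the ETS factor genes Etv1, Etv4 and Etv5, of the inhibitor genes Dusp6, Spred1, Spred2 and Spry4, of Fgf10 and of Flrt2 and Flrt3, and Deiters' cells more of Fgf1, Fgf9, Fgf12, Fgf13, Fgf23 and Fgfr4. Of the 47 genes, 32 passed the expression filter, which asked for an average over 0.1 RPKM in 1 or both cell types. They were compared with limma on log2(RPKM + 0.1), in a fit over all 17188 genes that passed. Calls required a 2-fold difference or more and an adjusted p no larger than 0.01. Of the 32, 10 were called higher in pillar cells, with 6 more called higher in Deiters' cells. Over all genes tested 28.7% were called, 14.7% higher in pillar cells and 14% higher in Deiters' cells. Genes that pass the filter through 1 cell type only must differ to some extent: 4 FGF genes passed through Deiters' cells only (Fgf11, Fgf12, Fgf13, Fgf23) and 2 through pillar cells only (Etv4, Fgf14). Of the 26 that passed in both cell types, 9 were called higher in pillar cells, 3 the other way, beside 21.1% called among the 14419 genes of that kind. Without regard to the fold, 25 of the 32 differed at an adjusted p of at most 0.01, beside 61.9% of all genes. In 28 of the 32 the pillar cell and Deiters' cell libraries did not overlap, beside 76.5% of all genes tested. The median log2 fold change (pillar minus Deiters') of the 32 was 0.49, and that of all genes tested was 0.00074. Fgf12 and Fgf23, listed at 0 in pillar cells, lie below this median whatever their fold.

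**Figure D1:**
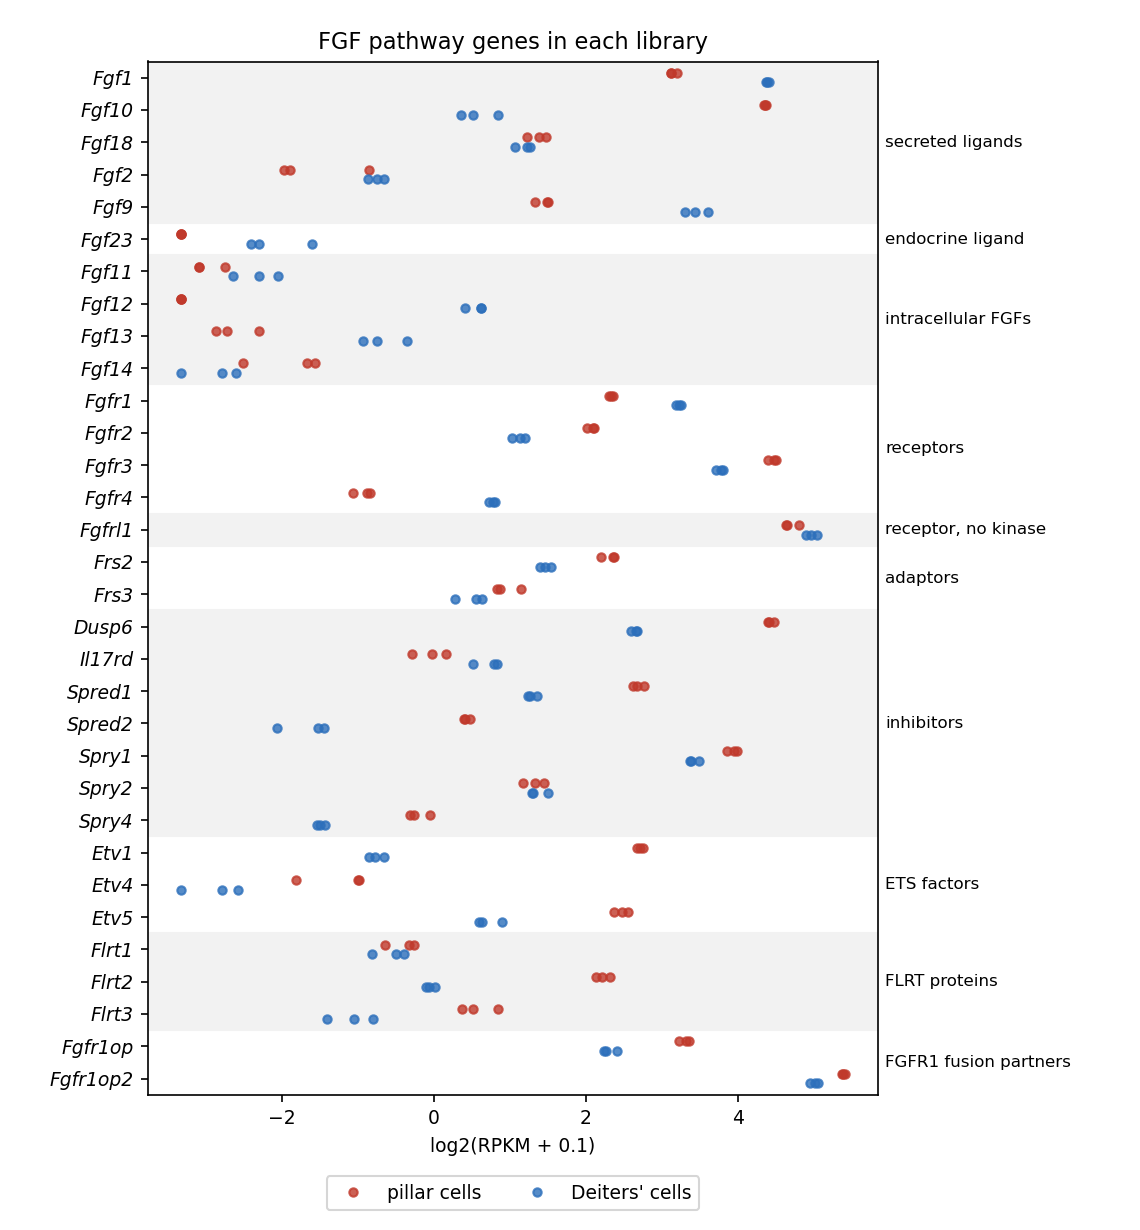
Level of the 32 tested FGF genes as log2(RPKM + 0.1), 1 point per library, with 3 pillar cell libraries in red and 3 Deiters' cell libraries in blue, grouped by role. Fgf10, Etv1 and Dusp6 sit to the right in pillar cells and Fgf1 and Fgf9 in Deiters' cells, while the libraries overlap for Fgf18, Fgf2, Spry2 and Flrt1.

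The 4 receptor tyrosine kinase genes, Fgfr1 to Fgfr4, were all measured, and their mixture differed between the cell types. Fgfr3 was the most abundant of them in both. Its level was 21.0, 22.7 and 22.2 RPKM in the 3 pillar cell libraries and 13.9, 12.99 and 13.6 RPKM in the 3 Deiters' cell libraries. All pillar cell libraries lay above all Deiters' cell libraries, with means of 21.95 ± 0.888 and 13.5 ± 0.453 RPKM (SD, n = 3). The log2 fold change was 0.70 (SE 0.04, adjusted p = 1.8e-05), which is under 2-fold.

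Fgfr1, a receptor of broad expression, went the other way. It measured 5.03, 4.84 and 4.93 RPKM in pillar cells against 9.002, 9.23 and 9.42 RPKM in Deiters' cells, which is -0.89 as a log2 fold change (SE 0.04, adjusted p = 5.4e-06). Fgfr2, the main receptor of FGF10 in its epithelial splice form, measured 4.19, 3.94 and 4.21 RPKM in pillar cells against 1.95, 2.09 and 2.21 RPKM in Deiters' cells. Its log2 fold change of 0.95 (SE 0.07, adjusted p = 3.8e-05) stopped short of 2-fold, and reached 1.06 in the lanes of set B described further on. Gene-level RPKM does not tell splice forms apart. The exons of Fgfr2 share 314 bases with Ctbp2, those of Fgfr3 998 with G630022F23Rik and those of Fgfr1 164 with Gm16159. The part of reads from these neighbours in the receptor levels and shares was not tested.

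Fgfr4 was the scarcest of the 4 and the one called. Its libraries held 0.377, 0.443 and 0.457 RPKM in pillar cells (27 to 31 reads each) and 1.62, 1.66 and 1.56 RPKM in Deiters' cells (103 to 124 reads). The level in Deiters' cells was 3.79 times that in pillar cells (log2 fold change -1.71, SE 0.11, adjusted p = 1.9e-05).

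As shares of the summed RPKM of the 4 genes, Fgfr3 made up 69.8% ± 1.24 in the pillar cell libraries, compared with 51.1% ± 1.23 in Deiters' cells (SD, n = 3). Fgfr1 made up 15.7% ± 0.667 and 34.9% ± 0.783, Fgfr2 13.1% ± 0.685 and 7.88% ± 0.453, and Fgfr4 1.35% ± 0.105 and 6.11% ± 0.279. The sum itself was 31.4 ± 0.756 RPKM in pillar cells against 26.4 ± 0.420 RPKM in Deiters' cells, ranging from 30.6 to 31.9 and from 26.0 to 26.8 RPKM. In both cell types the order was Fgfr3, Fgfr1, Fgfr2, Fgfr4, and no neighbours in it overlapped between libraries.

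**Figure D2:**
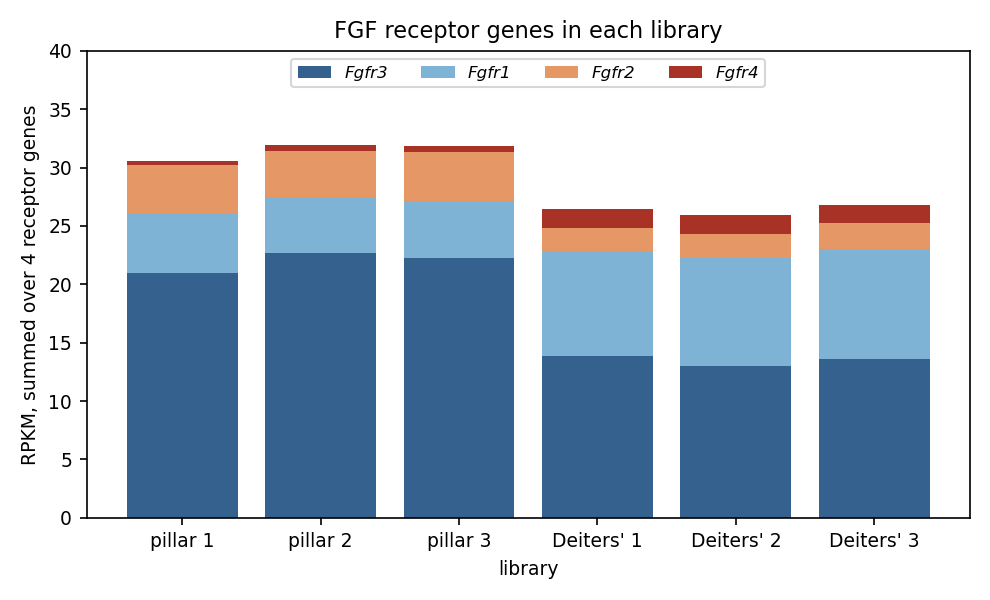
RPKM of the 4 FGF receptor kinase genes stacked for each of the 3 pillar cell and 3 Deiters' cell libraries. The Fgfr3 segment is taller in the pillar cell libraries (21.0 to 22.7 RPKM) and the Fgfr1 segment in the Deiters' cell libraries (9.002 to 9.42 RPKM).

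Fgfrl1 encodes a further FGF-binding receptor without a kinase domain. In both cell types its level exceeded that of each kinase receptor. It measured 24.9, 27.8 and 24.9 RPKM in pillar cells against 32.9, 29.8 and 31.1 RPKM in Deiters' cells (log2 fold change -0.27, SE 0.06, adjusted p = 0.0048, under 2-fold). Fgfr1op and Fgfr1op2 match the rule by name only: they were named for fusions with FGFR1 in blood cancers and encode no receptor. Fgfr1op measured 9.77 ± 0.471 and 4.86 ± 0.306 RPKM and Fgfr1op2 41.9 ± 0.441 and 32.1 ± 1.27 RPKM in pillar and Deiters' cells, and neither was called. For Fgfr1op the log2 fold change of 0.99 lay so close to the 2-fold limit that leaving out Deiters' library 2 (1.04) or pillar library 2 (1.03) made it a call. The pseudogene Fgfr3-ps was listed at 0 throughout.

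Of the 15 secreted ligand genes that act near the cell that makes them, 5 passed the filter, and 3 of these were called. Fgf10, which in development takes part in forming the inner ear, had the largest ratio among the FGF genes above 0 in both cell types. Its 3 pillar cell libraries held 20.2, 20.7 and 20.5 RPKM and its 3 Deiters' cell libraries 1.18, 1.69 and 1.33 RPKM. In reads this was 1807 to 1878 per library against 114 to 150. The groups lay far apart, at 14.6 times more in pillar cells (log2 fold change 3.79, SE 0.12, 95% interval 3.50 to 4.08, adjusted p = 1e-06). The gene lies on chr13:118669791-118792115 (GRCm38, forward strand), and 123 of its exon bases are shared with the annotated gene Gm16263.

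Fgf1, an FGF that binds all the receptor kinases, and Fgf9 were the ligands of Deiters' cells. Fgf1 measured 8.63, 9.10 and 8.59 RPKM in pillar cells against 20.9, 21.2 and 20.6 RPKM in Deiters' cells, 2.38 times higher there (log2 fold change -1.24, SE 0.04, adjusted p = 8e-07). Fgf9 measured 2.42, 2.71 and 2.74 RPKM in pillar cells against 10.8, 9.80 and 12.1 RPKM in Deiters' cells, 4.15 times higher there (log2 fold change -2.01, SE 0.09, adjusted p = 4.4e-06). The libraries of the cell types did not overlap for either gene.

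Fgf18 was not called, and its libraries overlapped. It measured 2.67, 2.25 and 2.501 RPKM in pillar cells against 2.31, 2.23 and 1.99 RPKM in Deiters' cells. The log2 fold change of 0.18 had a 95% interval of -0.05 to 0.41 (adjusted p = 0.14), which leaves room for up to 0.41. The order of the ligands therefore differed: in pillar cells Fgf10 came first, then Fgf1, then Fgf9 and Fgf18, whose libraries overlapped, and in Deiters' cells Fgf1 came first, then Fgf9, Fgf18 and Fgf10.

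The summed level of the 15 ligand genes was close, 34.1 to 35.2 RPKM in pillar cells against 35.5 to 36.4 RPKM in Deiters' cells, while the genes behind it differed. Fgf10 supplied 20.5 ± 0.240 RPKM of it in pillar cells, and Fgf1 20.9 ± 0.285 RPKM in Deiters' cells.

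Fgf2 was low, and its value depended on the lanes. It measured 0.155, 0.452 and 0.170 RPKM in pillar cells against 0.537, 0.494 and 0.448 RPKM in Deiters' cells (log2 fold change -0.82, SE 0.31, adjusted p = 0.051, not called). Without pillar library 2 the log2 fold change was -1.18, a call. The 12 lanes fell into sets, here named A and B, that cut across the libraries. The sets were drawn from these same values, by the main direction in which lanes differed within a cell type (72.0% of that variation). Set A held no lane of pillar library 2 and set B none of Deiters' library 3, so comparisons within a set lack that library. In pillar cells the Fgf2 level of the set A lanes was 2.04 lower on the log2 scale than that of the set B lanes (0.0148 and 0.0157 RPKM against 0.294 to 0.456), and in Deiters' cells 0.83 lower. Set A alone gave -1.95 for the difference between cell types, a call. The exons of Fgf2 share 895 bases with Nudt6, its antisense neighbour, and Gm43439. Fgf2os, an antisense transcript named after it, was listed at 0.

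The other secreted ligands were barely seen. Fgf3 had a single read in 1 pillar cell library. Fgf22 was listed at 0 in pillar cells and at 0.0940, 0.106 and 0 RPKM in the Deiters' cell libraries. Fgf4, Fgf5, Fgf6, Fgf7, Fgf8, Fgf16, Fgf17 and Fgf20 were listed at 0 in all 12 lanes. Inner hair cells make FGF8 during development, but no inner hair cell library was part of this comparison.

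Among the 3 endocrine ligands, which circulate and need a Klotho protein as co-receptor, Fgf15 was listed at 0. Fgf21 had 0 reads in the pillar cell libraries and 1, 2 and 2 reads in the Deiters' cell libraries. Its mean stayed under the filter, and without Deiters' library 1 it passed the filter and was called (adjusted p = 0.0016). Fgf23, a phosphate-regulating hormone of bone, had 0 reads in each pillar cell library and 4, 8 and 3 reads in the Deiters' cell libraries (0.102, 0.229 and 0.0890 RPKM). It was called higher in Deiters' cells at an adjusted p of 0.0042. The call was lost when any 1 pillar cell library was left out (adjusted p 0.0144 to 0.0159), and without Deiters' library 2 the gene no longer passed the filter. Kl, the gene of the FGF23 co-receptor Klotho, was likewise listed at 0 in pillar cells and measured 0.278, 0.156 and 0.207 RPKM in Deiters' cells (adjusted p = 0.00033). Like Fgf23, it passed the filter through Deiters' cells only, so that some difference was given in advance.

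Of the 4 intracellular FGF genes, Fgf12 and Fgf13 were higher in Deiters' cells. Fgf12 was listed at 0 in all pillar cell libraries and at 1.44, 1.44 and 1.23 RPKM in the Deiters' cell libraries (adjusted p = 1.5e-06). Fgf13 measured 0.0371, 0.0517 and 0.103 RPKM in pillar cells, or 3 to 8 reads, and 0.682, 0.426 and 0.494 RPKM in Deiters' cells, or 33 to 59 reads. That is 8.34 times higher in Deiters' cells (log2 fold change -1.95, SE 0.23, adjusted p = 0.0003). The groups of both genes were well apart.

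Fgf14 leaned the other way at a level near the filter, with 18, 19 and 6 reads in pillar cells and 4, 0 and 5 in Deiters' cells. Its log2 fold change of 0.99 (SE 0.33, adjusted p = 0.030) was not called, and became a call at 1.29 without pillar library 3. Fgf11 had 1 to 3 reads in pillar cells and 4 to 8 in Deiters' cells (adjusted p = 0.034, not called).

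Of 10 sodium channel subunit genes, the partners of these proteins, 4 passed the filter. Scn1a, an alpha subunit, was called higher in Deiters' cells (0.0427 ± 0.0148 and 0.196 ± 0.0156 RPKM), while Scn8a (0.114 and 0.269 RPKM) and Scn4b (0.205 RPKM in Deiters' cells) stayed under 2-fold on the scale tested. Scn1a passed the filter through Deiters' cells only, so that some difference was given in advance. The summed level of 8 neuronal and glial markers was 34.5 to 35.6 RPKM in pillar cells against 52.8 to 53.0 RPKM in Deiters' cells, with 2 of 8 called higher in Deiters' cells, 1 the other way. Their part in the values of Fgf12 and Fgf13 was not tested.

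Of the adaptor genes, Frs2, which links the receptors to the RAS-ERK cascade, measured 5.10, 5.04 and 4.50 RPKM in pillar cells against 2.80, 2.54 and 2.66 RPKM in Deiters' cells. The libraries did not overlap, but the log2 fold change of 0.85 (SE 0.07, adjusted p = 7.6e-05) was under 2-fold. Frs3, its relative, measured 1.84 ± 0.232 and 1.31 ± 0.179 RPKM (adjusted p = 0.021).

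All 3 PEA3 group genes were called higher in pillar cells. Etv1 measured 6.27, 6.45 and 6.64 RPKM in pillar cells against 0.535, 0.485 and 0.455 RPKM in Deiters' cells, 13.1 times more in pillar cells (log2 fold change 3.47, SE 0.08, adjusted p = 3.7e-07). Etv5 measured 5.46, 5.78 and 5.06 RPKM in pillar cells against 1.41, 1.77 and 1.45 RPKM in Deiters' cells, 3.52 times more (log2 fold change 1.75, SE 0.10, adjusted p = 1.3e-05). Both genes separated the libraries fully.

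Etv4 was low, with 25, 11 and 24 reads in the pillar cell libraries and 3, 4 and 0 in the Deiters' cell libraries. The values were 0.399, 0.185 and 0.405 RPKM against 0.0450, 0.0669 and 0 RPKM (log2 fold change 1.63, SE 0.31, adjusted p = 0.0029). This call did not stand without Deiters' library 1 (adjusted p = 0.0105), pillar library 1 (0.0145) or pillar library 3 (0.0134), although every pillar cell library exceeded every Deiters' cell library.

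Of the 8 inhibitor genes in the table, 7 passed the filter, and 4 of these were called, all higher in pillar cells. Dusp6, a phosphatase that removes phosphate from ERK and a widely used readout of FGF signalling, was the most abundant of them in pillar cells. It measured 22.2, 21.2 and 21.0 RPKM there and 6.22, 6.29 and 5.95 RPKM in Deiters' cells, with 1126 to 1252 reads per library against 310 to 375. The pillar cell level was 3.49 times higher (log2 fold change 1.79, SE 0.04, adjusted p = 3.4e-07).

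The 2 Spred genes that were tested encode proteins that keep RAS from activating RAF, and both were called. Spred1 measured 6.29, 6.04 and 6.73 RPKM in pillar cells against 2.31, 2.46 and 2.27 RPKM in Deiters' cells, 2.71 times more in pillar cells (log2 fold change 1.40, SE 0.07, adjusted p = 5e-06). Spred2 measured 1.29, 1.23 and 1.22 RPKM against 0.140, 0.247 and 0.267 RPKM, 5.72 times more (log2 fold change 2.11, SE 0.19, adjusted p = 8e-05). Spred3 had at most 4 reads in a library and was not tested.

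The Sprouty genes did not move together. Spry4 was called, at 0.734, 0.868 and 0.704 RPKM in pillar cells against 0.253, 0.272 and 0.246 RPKM in Deiters' cells (2.99 times more in pillar cells, log2 fold change 1.28, SE 0.13, adjusted p = 0.00016). In the lanes of set A alone its log2 fold change was 0.91, below the limit. Spry1, the most abundant Sprouty gene, measured 15.4, 15.8 and 14.4 RPKM against 10.2, 10.3 and 11.1 RPKM. Its groups did not overlap, at a log2 fold change of 0.52 (SE 0.05, adjusted p = 0.00015), under 2-fold. The exons of Spry1 share 710 bases with Gm42922. Spry2 measured 2.42, 2.16 and 2.63 RPKM in pillar cells against 2.35, 2.37 and 2.73 RPKM in Deiters' cells, and these overlapped. Its log2 fold change of -0.05 had a 95% interval of -0.29 to 0.20 (adjusted p = 0.69).

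Il17rd, which encodes the inhibitor SEF of the cell membrane, was the inhibitor gene with the lower level in pillar cells at an adjusted p of no more than 0.01. It measured 0.886, 0.719 and 1.02 RPKM in pillar cells against 1.68, 1.63 and 1.32 RPKM in Deiters' cells (log2 fold change -0.76, SE 0.16, adjusted p = 0.0042, under 2-fold). The 8 genes together summed to 47.7 to 49.2 RPKM in pillar cells against 23.2 to 23.9 RPKM in Deiters' cells.

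**Figure D3:**
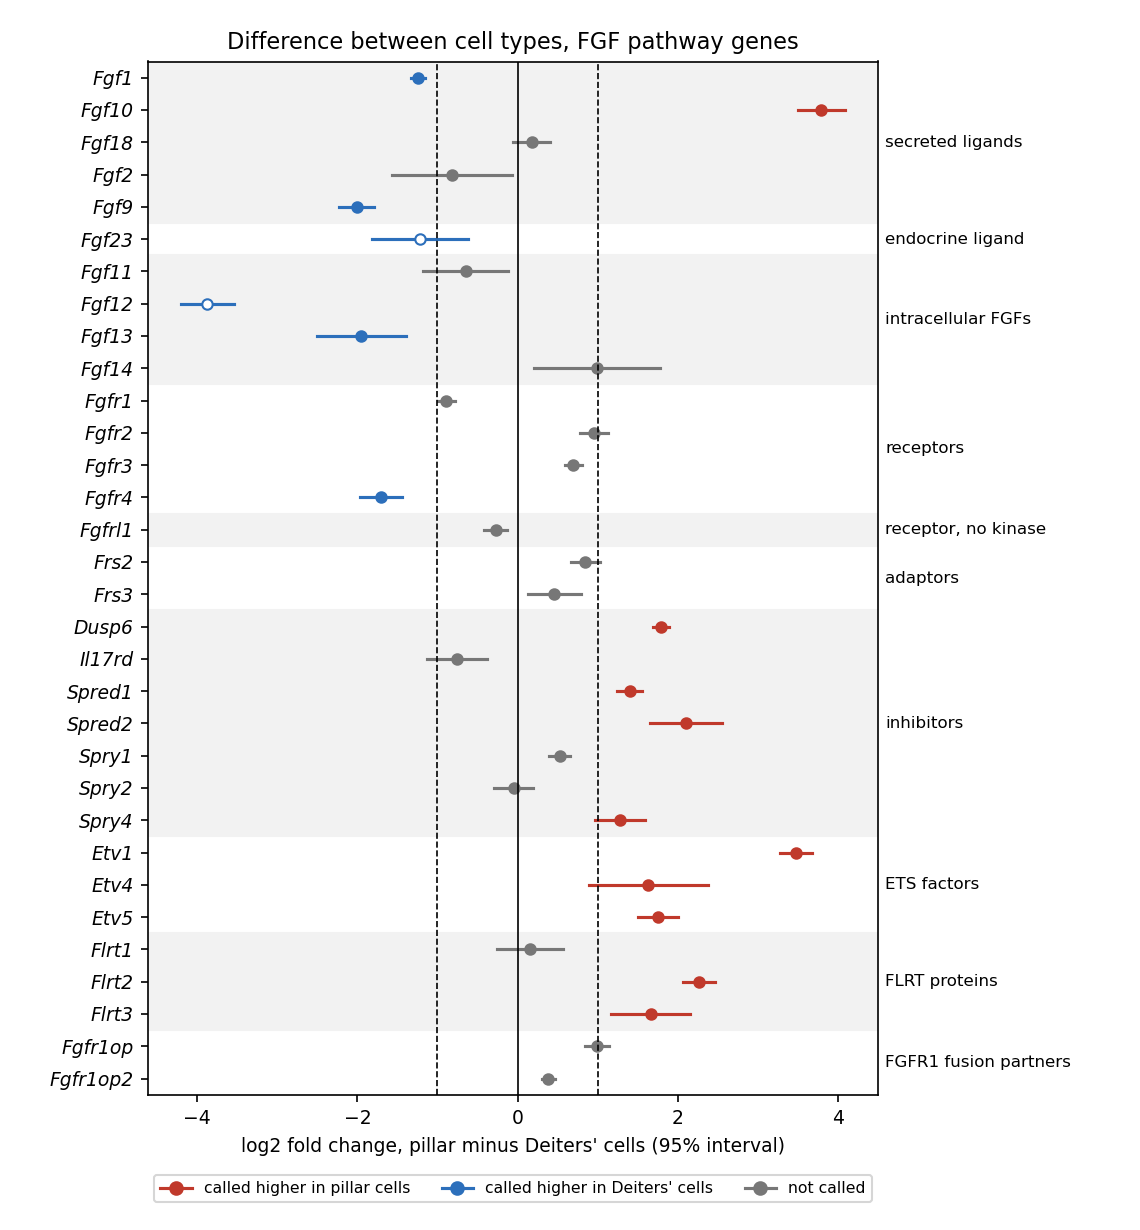
Log2 fold change (pillar minus Deiters' cells) of the 32 tested FGF genes with its 95% interval, on log2(RPKM + 0.1), with dashed lines at the 2-fold limits. Red marks the 10 genes called higher in pillar cells, blue the 6 called higher in Deiters' cells and grey the rest, and open circles mark Fgf12 and Fgf23, which are listed at 0 in pillar cells and whose position depends on the added 0.1.

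ETS factors of the PEA3 group bind a core of the letters GGAAG or its close variants, and Dusp6 and Etv5 are known targets of FGF signalling. The windows of 250 bases upstream of annotated starts (RefSeq, GRCm38.p6) were searched for GGAAG on both strands. They are shown for Dusp6 and Etv5, for Fgf10 for its large ratio, and for Spry2 as a gene that was not called, all chosen after the values were seen and all outside annotated exons. Capitals mark GGAAG, or CTTCC where it lies on the other strand. The windows are chr10:99262981-99263230 on the forward strand for Dusp6, chr16:22438369-22438618 on the reverse strand for Etv5, chr13:118714449-118714698 on the forward strand for Fgf10 and chr14:105896820-105897069 on the reverse strand for Spry2, each printed 5′ to 3′ in the direction of the gene. The Etv5 window lies at the second of its annotated starts, inside the gene, and the Fgf10 window inside the longer gene model of GENCODE. The bases that follow the Etv5 window were not found in a GENCODE transcript of that gene, while those of the other windows were found in theirs.
Dusp6: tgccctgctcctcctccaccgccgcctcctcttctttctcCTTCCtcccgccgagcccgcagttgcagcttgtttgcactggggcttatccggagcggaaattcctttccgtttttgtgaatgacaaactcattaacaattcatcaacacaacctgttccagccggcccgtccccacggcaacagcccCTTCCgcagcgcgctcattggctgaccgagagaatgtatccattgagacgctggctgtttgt
Etv5: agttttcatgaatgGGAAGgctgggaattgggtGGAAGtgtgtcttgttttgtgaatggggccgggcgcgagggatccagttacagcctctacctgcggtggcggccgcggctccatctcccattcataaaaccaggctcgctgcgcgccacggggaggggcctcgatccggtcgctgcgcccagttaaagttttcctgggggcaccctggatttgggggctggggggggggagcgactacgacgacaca
Fgf10: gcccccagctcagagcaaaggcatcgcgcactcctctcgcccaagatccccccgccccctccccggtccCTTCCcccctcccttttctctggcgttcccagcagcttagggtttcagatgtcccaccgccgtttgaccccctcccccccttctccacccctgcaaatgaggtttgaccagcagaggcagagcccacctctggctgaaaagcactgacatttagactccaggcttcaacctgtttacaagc
Spry2: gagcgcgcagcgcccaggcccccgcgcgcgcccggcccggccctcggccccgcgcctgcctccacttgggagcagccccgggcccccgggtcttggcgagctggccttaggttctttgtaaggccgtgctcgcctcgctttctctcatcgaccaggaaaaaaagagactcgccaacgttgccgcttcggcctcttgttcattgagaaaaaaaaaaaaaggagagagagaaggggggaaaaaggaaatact
The Dusp6 window held 2 matches, both on the other strand, the Etv5 window 2 on the strand shown, the Fgf10 window 1 and the Spry2 window none. The window at the other annotated start of Etv5, not shown because it overlaps an exon, held none. Of the 27025 genes with such a window, 66.9% held the core in at least 1, so that a match is common. Of the 47 FGF genes 35 had a window and 23 of these (65.7%) held the core. Among the genes called higher in pillar cells these were 7 of the 8 with a window (all but Flrt2), among those called higher in Deiters' cells 4 of 5 (all but Fgf9), and among those tested and not called 6 of 13. Etv4 and Spry4 had no entry. Matching letters are a description of these windows and not binding sites.

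FLRT proteins bind FGF receptors, and also latrophilins and UNC5 receptors. Of the 3 genes, 2 were called higher in pillar cells. Flrt2 measured 4.55, 4.28 and 4.88 RPKM in pillar cells against 0.834, 0.914 and 0.861 RPKM in Deiters' cells, 5.25 times more in pillar cells (log2 fold change 2.27, SE 0.08, adjusted p = 1.7e-06). Flrt3 measured 1.32, 1.70 and 1.19 RPKM against 0.382, 0.278 and 0.474 RPKM, 3.72 times more (log2 fold change 1.66, SE 0.20, adjusted p = 0.00037). The libraries of Flrt1 overlapped, at 0.659 ± 0.102 and 0.581 ± 0.102 RPKM, with a 95% interval of the log2 fold change from -0.26 to 0.57.

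The FLRT partners differed in both directions: of 7 genes 5 were tested, with 2 called higher in pillar cells, 1 the other way. The latrophilin gene Adgrl3 measured 2.13 ± 0.315 RPKM in pillar cells against 0.915 ± 0.0545 RPKM in Deiters' cells, and Unc5d 0.371 ± 0.0526 and 0.0940 ± 0.0587 RPKM. Unc5b was higher in Deiters' cells, at 5.08 ± 0.117 against 1.40 ± 0.0594 RPKM (log2 fold change -1.79, adjusted p = 1.7e-06). Adgrl1 measured 1.42 ± 0.124 and 0.962 ± 0.0919 RPKM and was not called.

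Around the FGF genes proper, 85 genes in 7 lists were looked up. Of the 72 that passed the filter, 10 were called higher in pillar cells, 12 the other way, 30.6% in all beside the 28.7% of all genes tested, with a median log2 fold change of 0.01. Among the called genes, Scn1a, Kl, Gpc6 and Sulf2 passed the filter through Deiters' cells only, and Hs3st3a1 and Unc5d through pillar cells only. For these some difference was given in advance. Of all genes that passed in this way, 69.9% (Deiters' cells only) and 66.1% (pillar cells only) were called.

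The proteins that carry FGFs to their receptors differed gene by gene. Of 13 co-receptor and FGF-binding genes 12 were tested, with 3 called higher in pillar cells (Sdc1, Gpc4, Fgfbp1) and 3 in Deiters' cells (Gpc6, Gpc2, Kl). The syndecan gene Sdc1 measured 14.9, 15.3 and 14.8 RPKM in pillar cells against 6.83, 6.68 and 6.603 RPKM in Deiters' cells, and the glypican gene Gpc4 11.9 ± 1.15 and 4.77 ± 0.0560 RPKM. The 2 most abundant syndecans differed in opposite directions by less than 2-fold, Sdc4 at 75.5 ± 0.557 and 48.5 ± 0.617 RPKM and Sdc2 at 47.6 ± 1.87 and 79.5 ± 3.66 RPKM. Fgfbp1, which frees FGFs from the matrix, measured 1.34 ± 0.360 and 0.254 ± 0.0589 RPKM. Gpc6 was near 0 in pillar cells, at 0.00524, 0 and 0.0166 RPKM, and measured 0.526, 0.633 and 0.472 RPKM in Deiters' cells.

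Of 15 genes that build or trim heparan sulfate 14 were tested, with 3 called higher in pillar cells (Extl3, Hs3st3a1, Hs3st3b1) and 4 in Deiters' cells (Ext1, Glce, Sulf1, Sulf2). Ext1, which forms the chain-building enzyme together with Ext2, measured 1.06 ± 0.0784 RPKM in pillar cells against 4.36 ± 0.0877 RPKM in Deiters' cells. Glce, the epimerase of the chain, measured 2.57 ± 0.0866 and 7.58 ± 0.0495 RPKM, and Sulf1, a sulfatase that trims the finished chain, 9.73 ± 0.266 and 21.6 ± 0.557 RPKM. Hs3st1, a sulfotransferase and the most abundant of the list, measured 122 ± 1.33 and 242 ± 4.05 RPKM, and its log2 fold change of -0.98 lay just under the limit. Among the pillar cell genes, the sulfotransferase gene Hs3st3a1 measured 0.524 ± 0.0408 RPKM against 0.0129 ± 0.000913 RPKM.

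Few genes of the RAS-ERK cascade were called: of 22 genes, all tested, 1 was called in each direction. All 22 exceeded 0.1 RPKM in both cell types, and 21.1% of all such genes were called. Without regard to the fold, 12 of the 22 differed at an adjusted p of at most 0.01, beside 61.9% of all genes tested. In 19 of the 22 the libraries of the cell types did not overlap, beside 76.5% of all genes tested. Rps6ka2, an ERK-activated kinase, measured 17.8, 18.4 and 18.4 RPKM in pillar cells against 2.81, 2.86 and 3.22 RPKM in Deiters' cells, 6.15 times more in pillar cells (log2 fold change 2.58, SE 0.06, adjusted p = 3.6e-07). Cbl, a ubiquitin ligase that removes receptors, measured 0.157 ± 0.0350 and 0.550 ± 0.0713 RPKM and was called higher in Deiters' cells. The kinase genes Map2k1 (93.6 ± 1.596 and 57.2 ± 1.58 RPKM) and Mapk3 (56.5 ± 1.57 and 36.4 ± 0.977 RPKM) and the docking protein gene Gab1 (28.1 ± 0.870 and 41.0 ± 0.858 RPKM) differed by less than 2-fold.

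Other brakes on the cascade, outside the rule for FGF genes, gave 1 call among 8 tested of 10. Dusp5, a nuclear ERK phosphatase, measured 1.28 ± 0.193 RPKM in pillar cells against 3.18 ± 0.317 RPKM in Deiters' cells, opposite in direction to Dusp6 (log2 fold change -1.26, SE 0.13, adjusted p = 0.00017). Errfi1, an inhibitor of the EGF receptor, measured 31.2 ± 0.636 and 16.0 ± 0.545 RPKM at a log2 fold change of 0.96, and Dusp1, a phosphatase induced by stress, 94.0 ± 2.58 and 56.2 ± 1.76 RPKM. Rasa2, a RAS GTPase activator, measured 2.29 ± 0.0369 and 1.26 ± 0.146 RPKM.

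The early response genes downstream of ERK did not share a direction either: of 8 genes 7 were tested, with 1 called in each direction and a median log2 fold change of -0.74. Without regard to the fold, 5 of the 7 differed at an adjusted p of at most 0.01. Of these Phlda1 was higher in pillar cells, and Ccnd1, Ier3, Egr1 and Myc were higher in Deiters' cells. Phlda1 measured 33.6 ± 0.578 RPKM in pillar cells against 11.5 ± 0.539 RPKM in Deiters' cells (2.92 times more in pillar cells, adjusted p = 5.5e-07). The cyclin gene Ccnd1 measured 0.368 ± 0.105 and 2.28 ± 0.252 RPKM, 6.18 times more in Deiters' cells (adjusted p = 4.1e-05). Egr1 (2.35 ± 0.117 and 4.66 ± 0.702 RPKM) and Ier3 (2.41 ± 0.320 and 4.50 ± 0.178 RPKM), both general early response genes, differed by less than 2-fold on the scale tested.

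**Figure D4:**
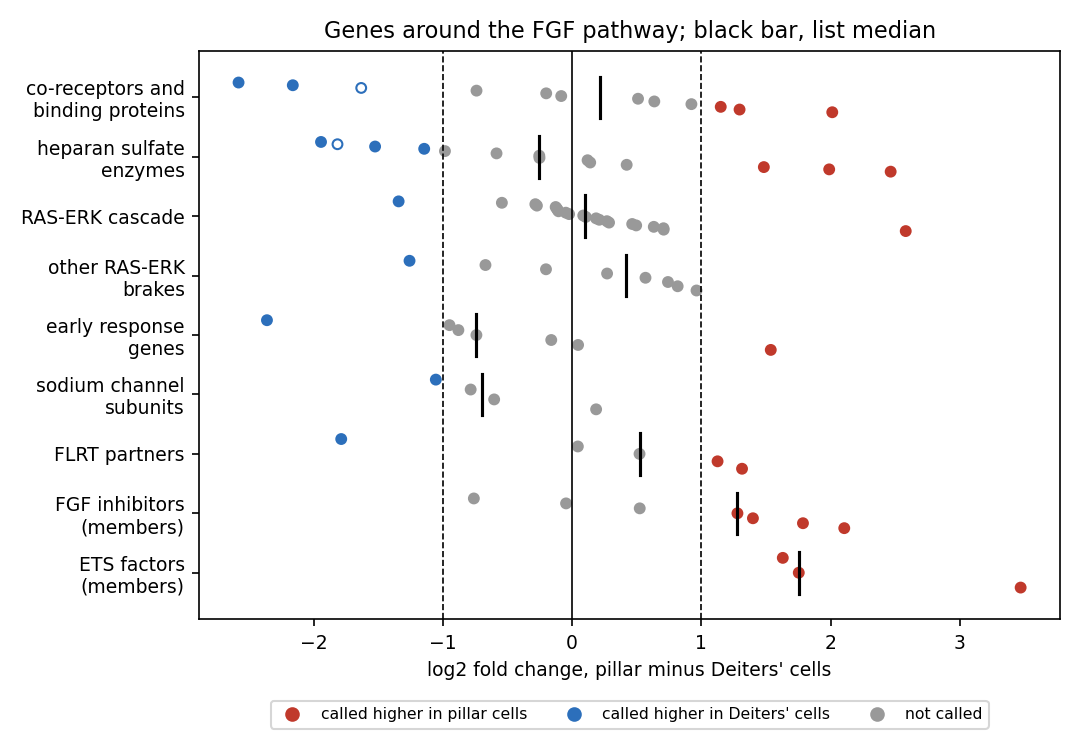
Log2 fold change (pillar minus Deiters' cells) on log2(RPKM + 0.1) of each tested gene in 7 lists around the FGF pathway and in the inhibitor and ETS factor groups, with the list median as a black bar and dashed lines at the 2-fold limits. The medians of the 7 lists lie between -0.74 and 0.52, those of the inhibitors at 1.28 and of the ETS factors at 1.75; open circles are Kl and Sulf2, listed at 0 in pillar cells.

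Over the 16 calls, 14 stood without each of the 6 libraries in turn, and Etv4 and Fgf23 were the exceptions. With 1 RPKM in place of 0.1 added before the logarithm, 7 of the 16 were no longer called (Etv4, Fgf13, Fgf23, Fgfr4, Flrt3, Spred2, Spry4), each of them with a mean under 2 RPKM in both cell types.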

How the data were processed

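The labels describe total RNA, copied with a low-input SMARTer kit and read as paired ends. The authors used CLC Genomics Workbench and the mouse build mm10 (GRCm38) for mapping. They deposited RPKM for each lane, a value scaled to transcript length and mapped reads. The annotation release and the handling of strand are not given in the sources used here, so reads of overlapping genes cannot be told apart. Identifiers matched GENCODE M21 for 48058 of 48440 features. Read totals per lane were estimated from low RPKM values and exon lengths. With these totals, exon lengths gave reads that were whole to within 0.01 in 14530 of 20010 features (72.6%). For Dusp6 the annotated length (3132 bases) did not, and the length that made the reads of every lane whole (2796 bases) was used. All reads are quoted for depth only.

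Both lanes of a library were averaged. Genes that averaged over 0.1 RPKM in 1 or both cell types were compared as log2(RPKM + 0.1) with limma 3.58.1 in R 4.3.3 (lmFit, eBayes with trend, no covariate), with Benjamini-Hochberg adjustment over 17188 genes. The study's methods name a count test, but no counts were at hand. Fold changes on this scale understate those of low genes; ratios are of mean RPKM. Intervals are 95%. The fit was tested on simulated data. P-values measure only the spread between these pooled libraries, and not a spread between single animals.

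The genes, lists and tests were chosen with earlier results of these data known. Named with values are FGF genes above 1 RPKM or called, and up to 4 genes of each other list by smallest p; further list genes were chosen after their values were seen. Alternatives were other added constants, filters, scalings, lanes, no variance trend, no minimum fold, the library number as a block and each library left out; the lane sets were added after seeing the data. 1 gene of the lists is not reported here.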

Additional observations from a re-analysis of the deposited data

How the results depend on the processing

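With 1 RPKM added in place of 0.1, the FGF genes called fell to 6 higher in pillar cells with 3 the other way, those of the other pathway lists to 10 and those of all genes to 1001 and 778. Testing only genes with a mean above 1 RPKM gave 1572 and 1224 calls over all genes, from fewer genes tested. With no minimum fold, 16 FGF genes were called higher in pillar cells with 9 the other way, 50 genes of the other lists, and 5169 and 5475 of all genes. Leaving out each library in turn gave 9 to 11 FGF genes higher in pillar cells, 5 to 7 in Deiters' cells, 21 to 24 in the other lists, and 2401 to 2482 and 2221 to 2380 over all genes. The log2 fold change of Spry2 turned to 0.025 in lane set A and ranged from -0.11 (without pillar library 3) to 0.025 (without pillar library 2) with each library left out, never called; the cause was not tested. The deviations of same-numbered libraries from the means of their cell types had correlations of -0.29, 0.38 and 0.32. The lane sets were spread unevenly over the libraries, so these correlations cannot show whether the library numbers pair the samples. With the library number as a replicate block, 9 FGF genes were higher in pillar cells, 5 the other way, 22 in the other lists, and 2450 and 2253 over all genes. Over 26 named FGF genes, 484 of 515 values kept their direction and side of the threshold. The lanes fell into sets of 6 each, 4 of the 6 set A lanes from Deiters' cells, and 3.98% of 13263 genes differed over 2-fold between sets in both cell types; set A gave 10 and 6 FGF calls, set B 10 and 7. Depth limits Etv4, Fgf11, Fgf14 and Fgf23, which rest on at most 25 reads per library.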
